A study of Mus musculus with 7 samples.

Results

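The 30 genes described here encode the contractile apparatus, the calcium cycle, the ion channels, the gap junctions and the natriuretic peptides of cardiomyocytes. They were chosen by name, and all 30 matched the RefSeq table, which holds 21887 protein-coding genes on the assembled chromosomes. For each gene, the span was its RefSeq body on mm10 with 100 kb on each side, and a JUNB peak was counted when its summit fell in that span, whichever gene was nearest. JUNB, which pairs with FOS proteins in the AP-1 transcription factor, had been mapped by CUT&RUN, in which a tethered nuclease releases DNA around an antibody-bound protein. The cells were iMGT-Myh6-eGFP-MEF, a mouse embryonic fibroblast line whose names point to an inducible set of Mef2c, Gata4 and Tbx5 (MGT), switched on by doxycycline, and to a reporter of Myh6 with eGFP. All libraries used here came from cells given doxycycline at 1 μg/mL and collected on day 1 after MGT induction. By the titles, the groups were siControl, a control siRNA, and siChst7, an siRNA against the sulfotransferase gene Chst7, with 2 JUNB libraries each. The treatment protocol in the labels instead lists siJunb and siH1f0 with siControl, and siJunb targets the gene of the protein that was mapped. Peaks of the 3 IgG libraries were not analysed here, and no background from them is given. Titles number the libraries as biological replicates, but no label says that cultures were separate, so p-values measure a spread between samples that could be technical. Peak lists hold no expression values, so neither the fibroblast identity of the cells nor the activity of any cardiac gene could be checked.

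In a sarcomere, myosin thick filaments pull on actin thin filaments that are anchored at Z-discs, and titin links the Z-disc to the centre of the thick filament. Contraction starts when calcium enters through the L-type channel, releases more calcium from the sarcoplasmic reticulum through the ryanodine receptor and binds troponin. Fibroblasts do not normally build sarcomeres, and the Mef2c, Gata4 and Tbx5 mixture is used to switch them on. AP-1 binds mostly at enhancers, at the palindrome-like site TGACTCA.

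Overlapping peaks (1 bp or more) of the 4 lists were merged into regions, and a region in all 4 lists is called common. The 30 spans covered 8.07 Mb and held 60 regions, of which 12 were common. At least 1 list had a summit in the spans of 22 genes, or 73.3%, where 61.3% of all protein-coding genes had one. By list, the members' share was 70.0% in siChst7 replicate 1, beside 56.1% of all protein-coding genes. In siControl it was 43.3% beside 46.0% and 46.7% beside 43.5%, in replicate order. In siChst7 replicate 2 it was 36.7% beside 38.1%. Common regions lay in the spans of 10 genes (33.3%), where the share over all protein-coding genes was 27.5%. This order turned with peaks of fold 5 or more (7 of 30 genes beside 24.3%) and with 50% reciprocal overlap (5 of 30 beside 21.5%). The 10 genes were Tnnt2, Tnni1, Actc1, Myl2, Myl3, Myl7, Mybpc3, Des, Casq2 and Gja1. No list had a summit in the spans of Myh6, Myh7, Ttn, Tnni3, Actn2, Tcap, Ryr2 and Slc8a1. Some members share their surroundings: Tnnt2 and Tnni1 shared all 6 of their regions, Nppa and Nppb shared 1, and the spans of Myh6 and Myh7 overlap.

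**Figure D1:**
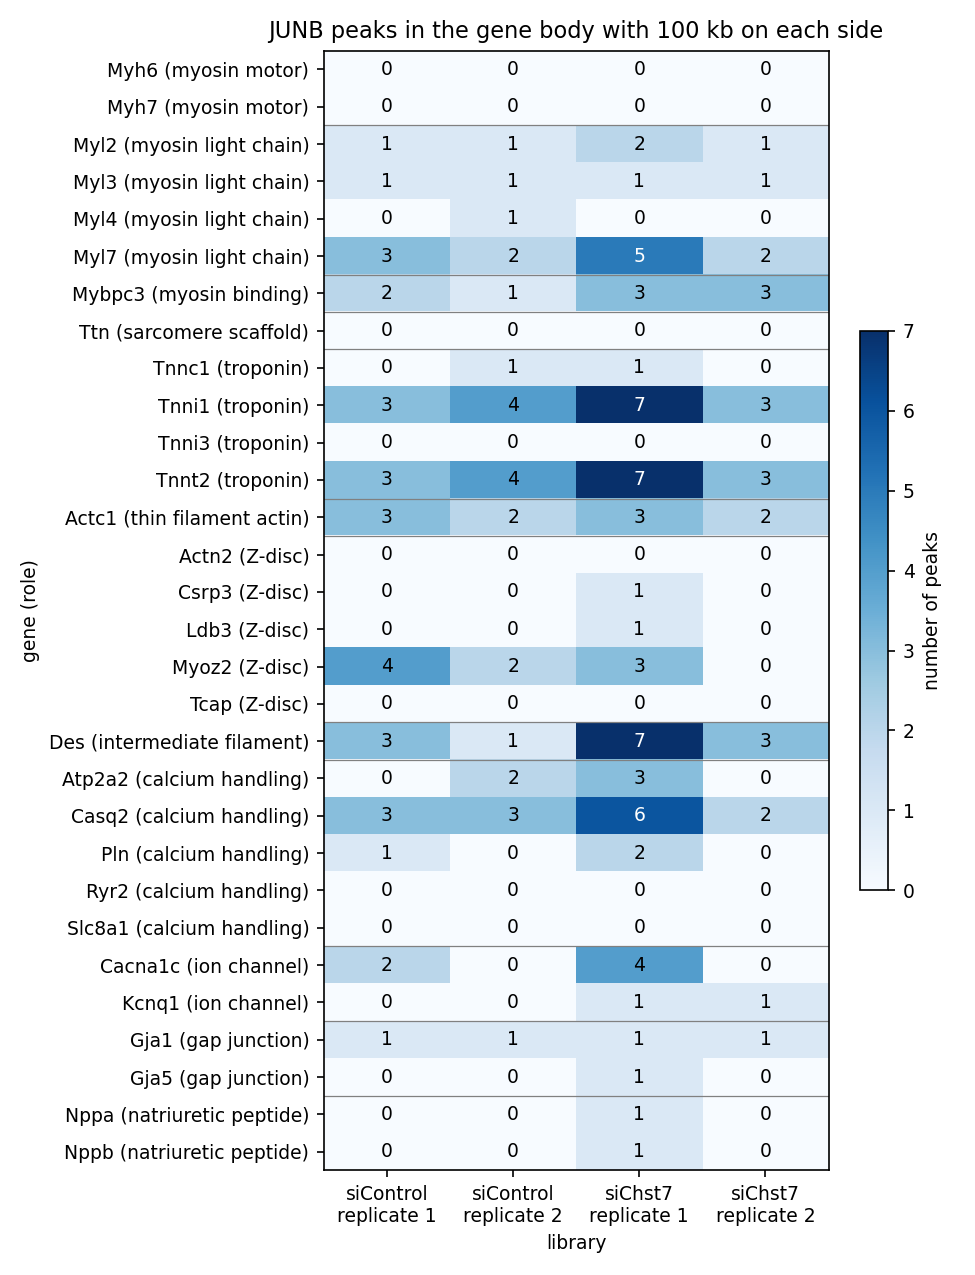
Number of JUNB peaks with a summit in the gene body with 100 kb on each side, for the 30 genes (rows, grouped by role) in the 4 libraries (columns); darker cells hold more peaks. Tnnt2, Tnni1 and Des reach 7 peaks in siChst7 replicate 1, and 8 genes are at 0 in every library.

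None of the promoters of these genes lay under a JUNB peak. RefSeq promoters on GRCm38.p6, from 250 bases before to 50 bases after an annotated start, were matched for 27 of the 30 genes. Atp2a2, Kcnq1 and Tcap were not matched. None of the 35 promoters touched a peak of any list, while 5.08% of 21263 promoters of protein-coding genes did. The AP-1 site TGACTCA, searched on both strands, was present in 4 of the 35 promoters (11.4%) and in 4.66% of all 21263. The 4 belong to Gja1, Myoz2 and Ldb3, and the 2 promoters of Ldb3 overlap and hold the same site. The related site TGACGTCA was in 0 of the 35 and in 2.23% of all promoters. A match of letters describes the sequence and does not show a bound site. The promoters of Gja1, Ldb3 and Myoz2 are printed because they hold the site without a peak. Those of Tnnt2 and Myl3 are printed because their spans hold the common regions with the highest folds, and that of Myh6 because the reporter of the line bears its name. Each runs 5′ to 3′ on the gene's strand, and capitals mark TGACTCA as it reads on that strand.
Gja1, chr10:56377050-56377349, plus strand: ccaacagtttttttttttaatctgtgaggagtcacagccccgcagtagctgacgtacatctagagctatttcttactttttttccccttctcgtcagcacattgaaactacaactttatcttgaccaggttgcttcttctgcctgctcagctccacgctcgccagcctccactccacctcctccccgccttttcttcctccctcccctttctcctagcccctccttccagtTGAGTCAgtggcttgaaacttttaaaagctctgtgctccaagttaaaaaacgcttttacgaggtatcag
Ldb3, chr14:34588632-34588931, minus strand: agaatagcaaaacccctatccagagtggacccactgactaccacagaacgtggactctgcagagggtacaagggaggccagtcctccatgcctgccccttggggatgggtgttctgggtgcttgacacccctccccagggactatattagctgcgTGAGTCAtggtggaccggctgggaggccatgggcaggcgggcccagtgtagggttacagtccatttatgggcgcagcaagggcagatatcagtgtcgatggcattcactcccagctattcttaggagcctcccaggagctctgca
Myoz2, chr3:123034938-123035237, minus strand: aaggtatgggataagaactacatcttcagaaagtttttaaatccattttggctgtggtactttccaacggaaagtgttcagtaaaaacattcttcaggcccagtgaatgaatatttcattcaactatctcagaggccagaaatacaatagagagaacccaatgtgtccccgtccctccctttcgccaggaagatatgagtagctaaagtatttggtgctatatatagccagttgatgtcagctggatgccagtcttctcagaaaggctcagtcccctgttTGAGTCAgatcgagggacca
Tnnt2, chr1:135836084-135836383, plus strand: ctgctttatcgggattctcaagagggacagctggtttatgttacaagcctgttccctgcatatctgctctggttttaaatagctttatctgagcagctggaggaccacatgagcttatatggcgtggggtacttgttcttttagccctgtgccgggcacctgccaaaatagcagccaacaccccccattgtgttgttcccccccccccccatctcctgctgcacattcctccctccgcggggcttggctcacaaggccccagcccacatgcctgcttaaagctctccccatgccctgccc
Myl3, chr9:110763428-110763727, plus strand: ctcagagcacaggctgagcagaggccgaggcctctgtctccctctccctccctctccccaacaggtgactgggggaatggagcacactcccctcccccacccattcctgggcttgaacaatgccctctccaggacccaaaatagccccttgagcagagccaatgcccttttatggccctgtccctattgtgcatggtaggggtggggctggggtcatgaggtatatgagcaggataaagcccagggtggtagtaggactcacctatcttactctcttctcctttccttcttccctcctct
Myh6, chr14:54966558-54966857, minus strand: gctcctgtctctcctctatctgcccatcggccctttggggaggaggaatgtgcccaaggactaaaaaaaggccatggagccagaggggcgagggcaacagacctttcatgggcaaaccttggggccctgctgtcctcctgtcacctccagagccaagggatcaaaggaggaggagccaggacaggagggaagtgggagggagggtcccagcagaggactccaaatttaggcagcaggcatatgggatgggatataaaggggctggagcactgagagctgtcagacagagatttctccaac
Counted from the annotated start as base 1, the site began at base -19 in Gja1, at base -95 in the Ldb3 promoter shown and at base 31 in Myoz2. The Myh6 and Myl3 promoters and the Tnnt2 promoter shown hold neither site.

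No JUNB summit lay within 100 kb of the cardiac myosin motor genes, which form 1 locus. Myh6 encodes the fast alpha heavy chain and Myh7 the slow beta heavy chain, and they stand next to each other on chromosome 14 (54941921 to 54968017 and 54970684 to 54994626). The nearest summit to the Myh6 body was 756 kb away in siControl replicate 1, 979 kb in siControl replicate 2, 208 kb from it in siChst7 replicate 1 and 507 kb in siChst7 replicate 2. The pair lay in a stretch of 826 kb with no summit of any list. A nearest summit at least as far as that of Myh6 was found for 24.9% of protein-coding genes, and as that of Myh7 for 22.9%. The nearest common region was 979 kb from Myh6 and 952 kb from Myh7. Whether the reporter adds copies of Myh6 sequence to these cells is not stated in the labels.

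Among the myosin light chains, which stabilise and tune the motor's lever arm, 3 of 4 spans held a common region. The share over all protein-coding genes was 27.5%, and with 4 genes the difference was not tested. The count rests on the 1 bp overlap and the wide span. With 50% reciprocal overlap the common regions of Myl2, Myl3 and Myl7 each had 3 lists. With windows of 100 bp on each side of the summits each kept 4. All of them lay outside a flank of 20 kb. Myl3, the ventricular essential light chain, had 1 region in its span (chromosome 9, 110684162 to 110685298), 79.3 kb upstream and inside Ccdc12. The fold enrichments over local background, which the authors' peak caller gave, were 10.4 and 9.93 in siControl and 13.6 and 7.995 in siChst7, in replicate order. The 4 summits of this region fell within 30 bp of each other. Myl7, the atrial regulatory light chain, had 5 regions, and its common one (chromosome 11, 5860063 to 5860919) lay 36.4 kb downstream and 1.6 kb from Aebp1. Its folds were 8.31, 11.8, 10.7 and 8.95 in the same order. A peak 1.3 kb from the Myl7 body had a fold of 6.64 and was listed in siChst7 replicate 1 alone. Myl2, the ventricular regulatory light chain, had 1 region (chromosome 5, 122166635 to 122167643), 53.8 kb downstream and inside the phosphatase gene Ppp1cc, with folds of 5.00 to 7.35. Myl4, the atrial essential light chain, had a peak inside its body in siControl replicate 2 alone, with a fold of 6.21. The siRNA groups overlapped in fold at the Myl3 and Myl7 common regions, and at Myl2 both siChst7 values lay above both siControl values.

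The troponin genes, whose products make the thin filament answer to calcium, differed among themselves. Tnnt2 (troponin T) and Tnni1 (slow skeletal and fetal troponin I) are neighbours on chromosome 1, and 6 regions, 3 of them common, fell in both spans. Over the genome, 3.69% of protein-coding genes had 3 or more common regions in their span. The count of 3 rests on the 1 bp overlap: 1 of the 3 kept 4 lists with 50% reciprocal overlap, and another 1 with windows of 100 bp on each side of the summits. In siControl the 2 lists held 3 and 4 peaks there, and in siChst7 they held 7 and 3. The best-ranked region (135770610 to 135772361) lay 11.8 kb upstream of the Tnni1 body and 2.1 kb from Phlda3, a target gene of p53. Its folds were 14.8 and 5.42 in siControl and 12.1 and 11.99 in siChst7, so that siControl replicate 2 was low and the other 3 libraries were high. This region spanned 1752 bp and its summits lay up to 801 bp apart. A common region at 135862070 to 135862726, 10.0 kb downstream of Tnnt2, had folds of 8.10, 7.27, 6.92 and 5.42. The third, 27.1 kb upstream of Tnni1 and 3.7 kb from Csrp1, a cytoskeletal LIM protein gene, had folds of 5.34 to 8.14. The peak inside Tnnt2 was in siChst7 replicate 1 alone, at a fold of 4.61, 8.0 kb from the nearest annotated start. Tnnc1 (cardiac troponin C) had a region 10.2 kb upstream, inside Nisch, with folds of 6.63 in siControl replicate 2 and 8.08 in siChst7 replicate 1. Tnni3, the adult cardiac troponin I gene, had none, and its nearest summit was 381 kb away. Of all protein-coding genes, 16.8% lay at least that far from a summit.

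Actc1, the cardiac actin gene, had 2 common regions, both upstream and toward Aqr. The one inside Aqr (chromosome 2, 114130244 to 114131020), 77.7 kb from Actc1, had folds of 7.41, 5.73, 7.61 and 4.54. The other, 34.5 kb away, had folds of 6.75, 4.30, 3.65 and 4.25. These were the lowest of the 12 common regions in each list except siControl replicate 1, where 4 other regions were lower. Mybpc3, which encodes the myosin binding protein that brakes cross-bridges, had a common region (chromosome 2, 91068767 to 91070990) 48.8 kb upstream and inside the zinc transporter gene Slc39a13. There the folds were 6.74 and 7.73 in siControl and 13.1 and 5.76 in siChst7. This region was the widest of the 12, at 2224 bp, and its summits lay up to 811 bp apart. The list of siControl replicate 1 had 2 peaks in it. With reciprocal overlap the region had 3 lists, and with windows around the summits it kept 4. Mybpc3 was also the 1 member with a region in both siChst7 lists and neither siControl list, where 6.47% of protein-coding genes had one. That region (91056962 to 91057541), 60.7 kb upstream and inside the proteasome gene Psmc3, had folds of 7.16 and 10.3. The count in the other direction, both siControl lists and neither siChst7 list, was 0 of 30 beside 3.2% of protein-coding genes. Ttn, which encodes titin, has a body of 279 kb and held no summit in its span of 479 kb. The nearest summit to Ttn was 120 kb away in siChst7 replicate 1 and 199 kb away in each of the other lists. Of all protein-coding genes, 34.9% lay at least 120 kb from a summit of any list.

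None of the 5 Z-disc genes had a common region in its span, beside 27.5% of all protein-coding genes, and Des had 1. A summit of at least 1 list lay in the spans of 3 of these 5, beside 61.3% of all protein-coding genes. With 5 genes, the count of 0 was not tested against the share over all genes. Myoz2, which tethers calcineurin at the Z-disc, had the most Z-disc regions with 5. It counted 4 and 2 peaks in siControl and 3 and 0 in siChst7, so that siChst7 replicate 2 was the empty list. A Myoz2 region 19.0 kb upstream was in 3 lists, with folds of 5.15, 7.44 and 8.17. A region inside the Myoz2 body (chromosome 3, 123019100 to 123019372) had folds of 5.34 in siControl replicate 1 and 5.59 in siChst7 replicate 1. Csrp3 (muscle LIM protein) and Ldb3 (which links alpha-actinin to signalling enzymes) had 1 region each, in siChst7 replicate 1 alone, at 71.2 and 59.0 kb. Actn2, the sarcomeric alpha-actinin gene, and Tcap (telethonin) had none, with nearest summits at 120 and 204 kb. Distances at least as large were found for 34.9% and 25.1% of protein-coding genes. Des, which encodes the muscle intermediate filament desmin, had 9 regions, the most of the 30, and 7 of them were in 1 list. The Des counts were 3 and 1 in siControl and 7 and 3 in siChst7. Its common region (chromosome 1, 75398479 to 75399327) lay 30.5 kb downstream and inside Speg, a striated muscle kinase gene, with folds of 4.96, 8.30, 6.98 and 5.11.

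**Figure D2:**
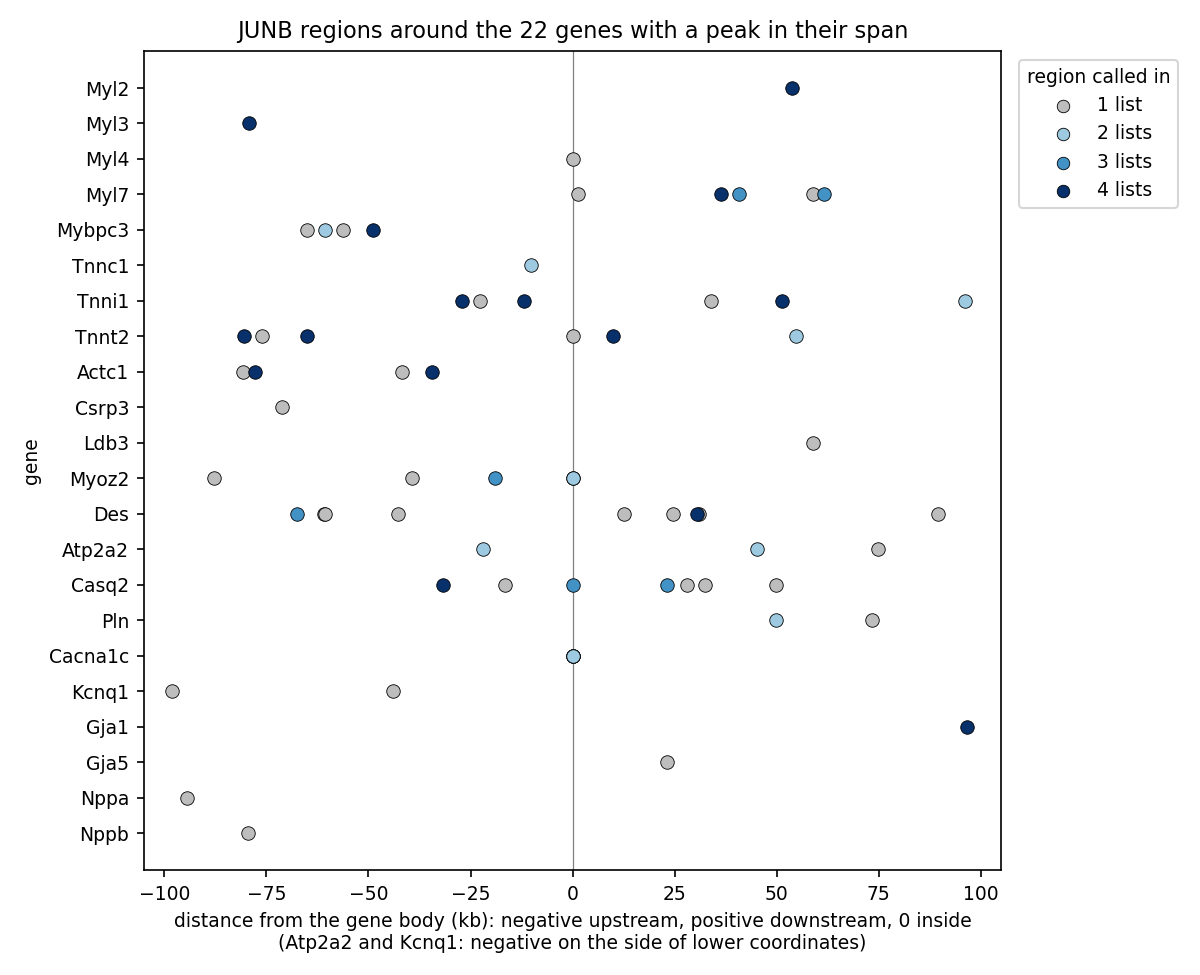
Distance of each JUNB region from the gene body in kb (x axis, negative upstream and positive downstream, 0 inside the body) for the 22 genes with a peak in their span; for Atp2a2 and Kcnq1, whose strand was not in the table, negative marks the side of lower coordinates; colour gives the number of lists with the region. The 9 regions inside a body are in 1 to 3 lists, and the common region nearest to a body lies 10.0 kb from Tnnt2.

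Of the 5 calcium cycle genes, Casq2 alone had a common region, and Ryr2 and Slc8a1 had no summit. These counts, 1 and 3 of 5, are near the shares of 27.5% and 61.3% over all protein-coding genes. Casq2 encodes calsequestrin, the calcium store protein of the sarcoplasmic reticulum. Its span held 3 peaks in each siControl list and 6 and 2 in the siChst7 lists, in 7 regions. The common region (chromosome 3, 102054412 to 102054703) lay 31.8 kb upstream, with Casq2 as the nearest gene and folds of 9.02, 6.83, 11.5 and 6.94. A region inside Casq2 (102103995 to 102104522) was in 3 lists, at folds of 9.02 (siControl replicate 1), 11.3 (siChst7 replicate 1) and 5.05 (siChst7 replicate 2). Atp2a2, the SERCA2 pump that refills the store, had 3 regions, of which 2 were shared by siControl replicate 2 and siChst7 replicate 1. The stronger of the Atp2a2 regions, inside Ift81, had folds of 10.9 and 9.87. Pln, which encodes the pump inhibitor phospholamban, had 2 regions, and the one at 49.7 kb had folds of 8.01 in siControl replicate 1 and 4.77 in siChst7 replicate 1. Neither the Atp2a2 nor the Pln regions were in siChst7 replicate 2, the shortest list.

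Ryr2, the ryanodine receptor gene, and Slc8a1, the sodium-calcium exchanger gene, were among the longest members with bodies of 554 and 365 kb. Their nearest summits in any list were 354 and 571 kb away. The stretch without a summit that holds the gene measured 2710.3 kb for Ryr2, which shares it with Actn2, and 2308 kb for Slc8a1. For Slc8a1 the 4 lists gave nearest distances of 571, 571, 575 and 600 kb, so the lists differed little. A nearest summit at least as far as that of Slc8a1 was found for 12.5% of protein-coding genes. For Ryr2 this share was 17.7%. Of 722 protein-coding genes with a body over 250 kb, 64.1% had a summit of at least 1 list in their span. Of the 5 members of that length, Kcnq1 and Cacna1c had a summit and Ttn, Ryr2 and Slc8a1 had none. Together the 8 empty spans covered 2689.8 kb.

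Among the 4 channel and gap junction genes, Gja1 alone had a common region, a count of 1 that is near the 27.5% of all protein-coding genes. Gja1 encodes connexin 43, which fibroblasts also make. Its region (chromosome 10, 56486536 to 56487405) lay 96.5 kb downstream, close to the edge of the span, with Gja1 as the nearest gene. The folds were 8.87 and 4.96 in siControl and 8.65 and 8.31 in siChst7, so that siControl replicate 2 was the low one. Gja5, the connexin 40 gene of atria and conduction tissue, had 1 peak, 23.0 kb downstream and in siChst7 replicate 1 alone. Cacna1c, the pore subunit of the L-type calcium channel, has a body of 610 kb, and all 4 of its regions lay inside it. The lists of siControl replicate 1 and siChst7 replicate 1 shared 2 of them (chromosome 6, 118884101 to 118884698 and 118999614 to 119000250), with folds of 4.05 to 6.34. The other lists had no peak in the Cacna1c span. Kcnq1, a subunit of the slow delayed rectifier potassium channel, had none in its body and 1 peak in each siChst7 list at different places, 98.0 and 43.9 kb away and inside Tspan32 and Cd81.

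The natriuretic peptide genes Nppa and Nppb, hormones of stretched heart muscle, are neighbours on chromosome 4. They shared 1 peak near Mfn2, with a fold of 6.32, in siChst7 replicate 1 alone. In the siControl lists the nearest summit was 1048 kb from Nppa and 1063 kb from Nppb. In siChst7 replicate 2, which also had no peak in these spans, it was 525 and 540 kb away. The median over all protein-coding genes was 120 and 133 kb in the siControl lists and 164 kb in siChst7 replicate 2. How many genes lay as far in these lists was not counted.

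**Figure D3:**
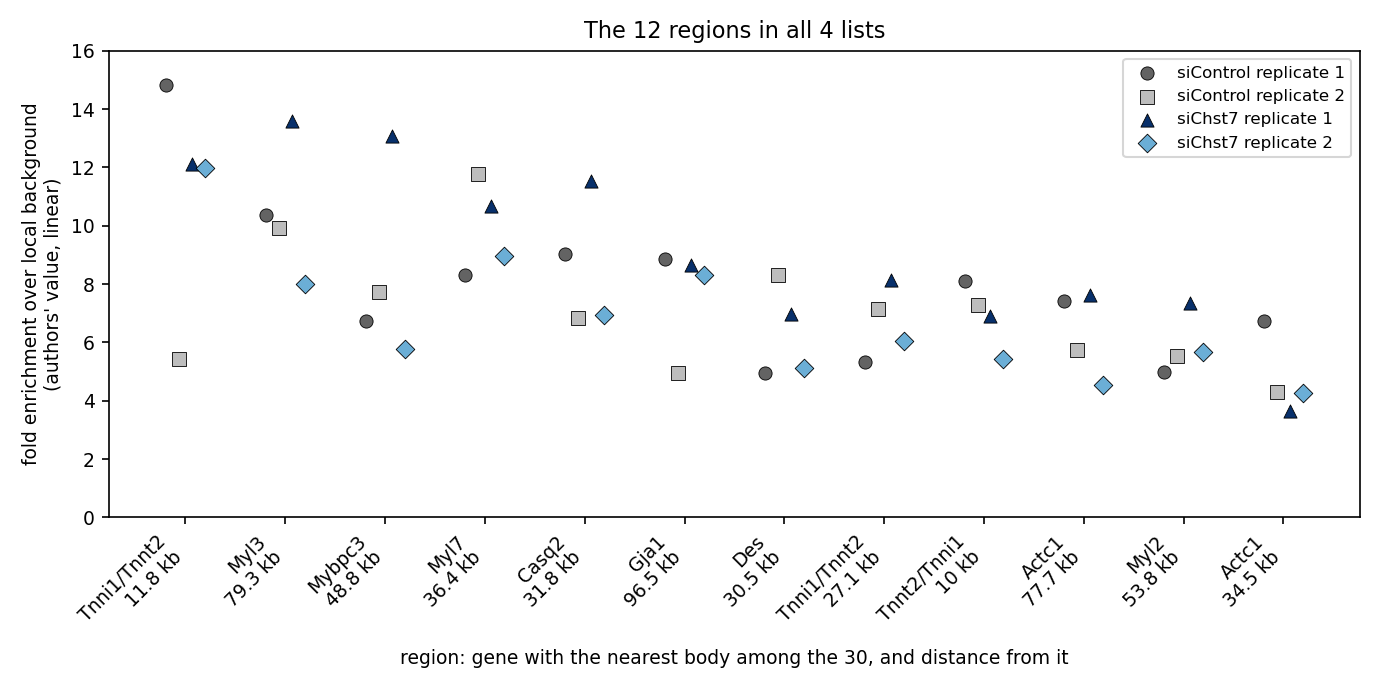
Fold enrichment over local background, as the authors' peak caller gave it (y axis, linear), for the 12 common regions in the 4 libraries (symbols), ordered by the highest value; labels give the nearest of the 30 genes and the distance in kb. Values run from 3.65 to 14.8, and the symbols of the siRNA groups overlap at 9 of the 12 regions.

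The common regions in these spans had a lower median fold than the common regions of the whole genome, a difference that was not tested, and 10 of the 12 lay nearest to other genes. The median of the highest fold over the 4 lists was 8.59 for the 12 common regions and 11.6 for all 2785 common regions. No peak in the spans had a fold under 3. Folds belong to each list and were not tested between groups. Both siChst7 folds were above both siControl folds at 1 of the 12 (Myl2), where 21.9% of all common regions had this order. They were below at 2 of the 12 (Actc1 at 34.5 kb and Tnnt2 at 10.0 kb), where 12.6% of all common regions had it. Of the 60 regions, 15 had a member as the nearest protein-coding gene, and of the 12 common regions 2 had, those of Casq2 and Gja1. Members were the nearest gene over 45.6% of the length of the spans, which 130 other protein-coding genes also touch. By the nearest member, 24 regions lay upstream, 22 downstream and 9 inside a body. The other 5 were beside Atp2a2 and Kcnq1. No common region lay inside a body, and their median distance from it was 35.5 kb.

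Close to transcription starts the members had few summits. Of the 27 genes with an annotated start, 1 had a summit of any list within 5 kb (Myl7) and 2 within 10 kb (Myl7 and Tnnt2), where 12.5% and 16.9% of 17492 protein-coding genes had one. Within 25, 50 and 100 kb they numbered 7, 11 and 17, beside 28.0%, 41.4% and 57.5% of protein-coding genes. A common region lay within 25 kb of a start for 0 of 27 members, while 2.64%, 4.07% and 8.0% of protein-coding genes had one within 5, 10 and 25 kb. Within 50 kb the numbers were 7 of 27 (25.9%) and 14.2%, and within 100 kb 9 of 27 (33.3%) and 24.3%. For common regions the members' share was thus below that of all genes within 25 kb and above it within 50 and 100 kb, a description of 27 genes that was not tested. The nearest common summits to a start were 25.2 kb for Tnnt2, 27.5 kb for Tnni1 and 31.8 kb for Casq2.

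**Figure D4:**
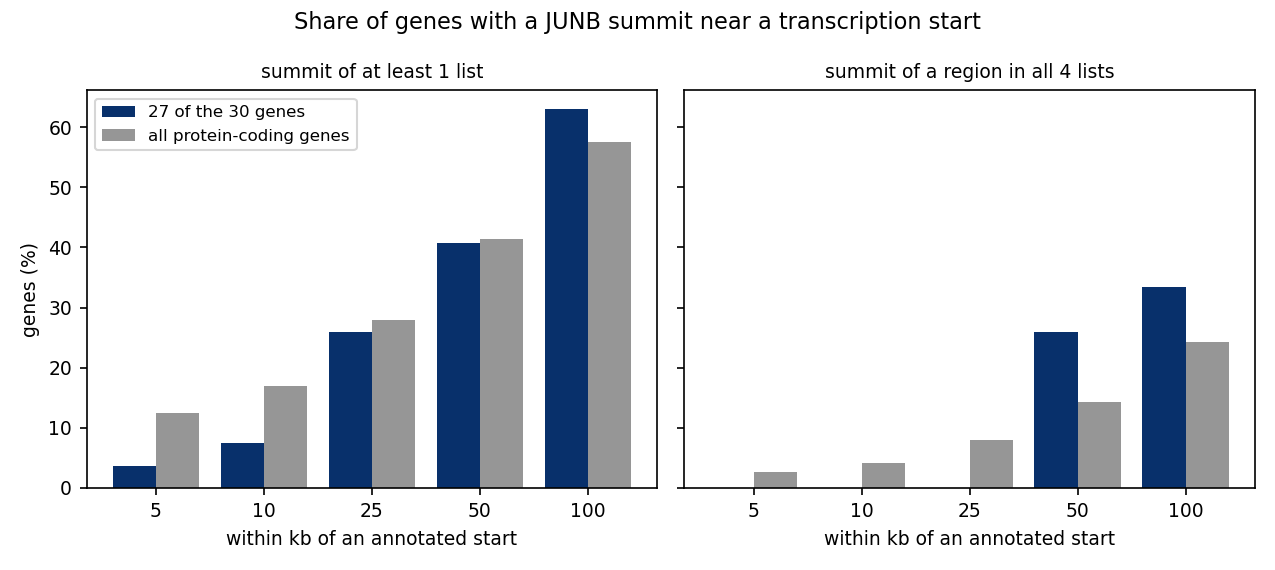
Percent of genes (y axis) with a JUNB summit within 5 to 100 kb of an annotated transcription start (x axis), for 27 of the 30 genes and for all protein-coding genes; left, summits of at least 1 list, right, summits of common regions. Within 25 kb of a start no member has a common region, beside 8.0% of all genes.

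Numbers of JUNB peaks in the 30 spans differed more within the siChst7 group than between the siRNA groups. Such peaks numbered 27 and 22 in siControl (mean 24.5 ± 3.54, SD, n = 2). In siChst7 they numbered 53 and 19 (mean 36.0 ± 24.0, SD, n = 2). The siControl values lay between those of siChst7. On the log2 scale the siChst7 mean exceeded the siControl mean by 0.38 (two-sided exact permutation p = 1). With 6 regroupings of 4 libraries, of which 2 always reach the observed size, the test cannot pass a threshold of 0.05. Without siChst7 replicate 1 the difference was -0.36. Lists also differed in length, from 4735 peaks in siChst7 replicate 2 to 10163 in siChst7 replicate 1. As a share of its list, the spans held 0.417% and 0.378% in siControl and 0.521% and 0.401% in siChst7. Exact Clopper-Pearson 95% intervals, which cover counting error only, ran from 0.237% to 0.682% over the 4 lists and overlapped for every pair. This share was 0.06 percentage points higher in siChst7 (two-sided exact permutation p = 0.667). The number of members with a peak was 13 and 14 in siControl and 21 and 11 in siChst7 (two-sided exact permutation p = 1). Over all protein-coding genes the shares with a peak were 46.0%, 43.5%, 56.1% and 38.1% in the same order, and over the members 43.3%, 46.7%, 70.0% and 36.7%. Of the 60 regions, 51 included siChst7 replicate 1 and 24 were in that list alone. Both siControl lists shared a region in the spans of 11 members (34.7% of protein-coding genes), and both siChst7 lists in the spans of 10 (35.0%). The member with a region in both siControl lists and none in both siChst7 lists was Myoz2.

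Counts of other gene lists by the same rule are given as descriptions. Of 49 further sarcomere, calcium and channel genes, 39 (79.6%) had a summit and 18 (36.7%) a common region in their span. Over all protein-coding genes these shares were 61.3% and 27.5%. Among the 18 were Kcnh2 and Xirp1 with 4 common regions each and Myom1 with 3. Nebl, Cacnb2 and Kcnd2 had no summit in any list. Of 16 cardiac transcription factor genes, 6 (37.5%) had a common region. The list of non-muscle and smooth muscle cytoskeleton genes, which includes relatives of the sarcomere genes, gave 20 of 29 (69.0%). It also holds Tpm1, Tpm2, Tpm3 and Pdlim5, whose products are found in striated muscle too, so it is not purely non-muscle and smooth muscle. Tpm2 and Pdlim5 had 1 common region each. The list was not counted without these genes. Myh9, the non-muscle myosin heavy chain gene, had 8 common regions in its span, while Myh6 and Myh7 had 0. Actn1 and Actn4, the non-muscle alpha-actinin genes, had 2 each and Actn2 had 0. Actb had 3 and Actg1 2, and Actc1 also had 2. Csrp1 had 2, both of which also lie in the Tnni1 span, and Csrp2 and Csrp3 had 0. Other relatives went the other way: Acta2, the smooth muscle actin gene, had 0, and the light chain gene Myl9 had 0, beside 1 each for Myl2, Myl3 and Myl7. The tropomyosin genes Tpm3 and Tpm4 also had 0, and Tpm1 had 3. These relatives were picked after their values were seen. Per Mb of span there were 1.49 common regions around the 30 genes, 1.33 around all protein-coding genes and 5.78 around the cytoskeleton list. Of 20 fibroblast marker genes 10 had a common region, of 7 endothelial 4, of 7 macrophage 2 and of 8 skeletal muscle 3. Their part in the cardiac counts was not tested.

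**Figure D5:**
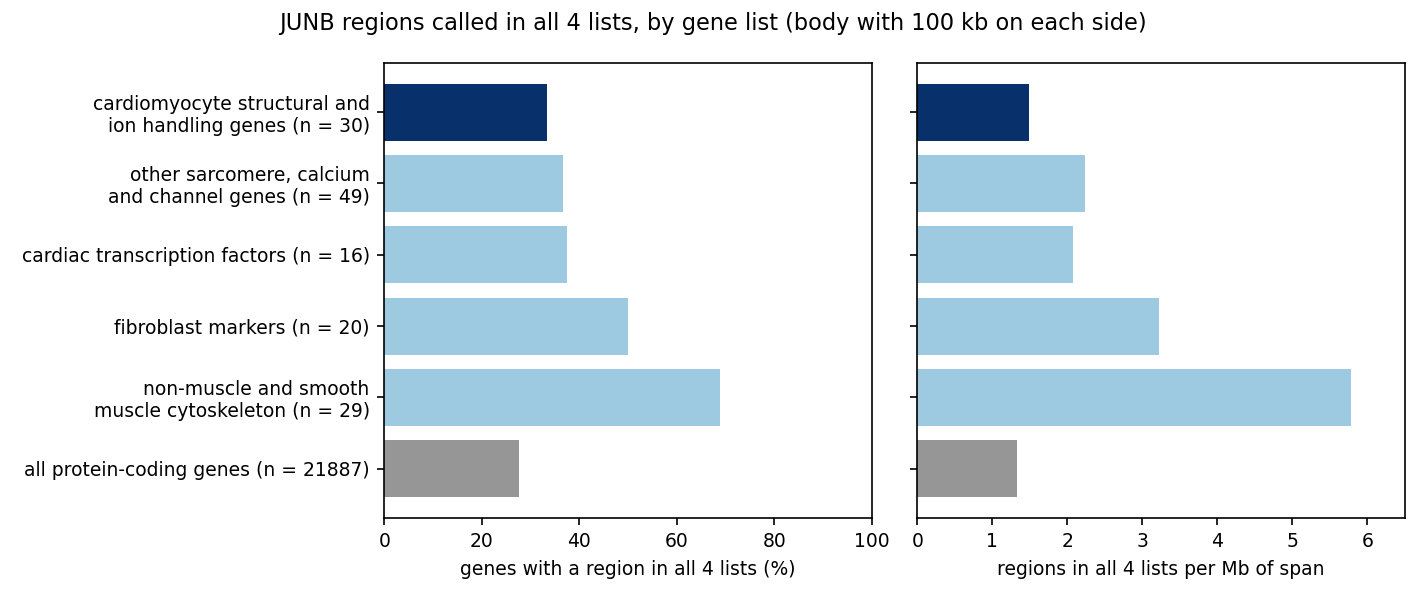
Left, percent of genes with a common JUNB region in the body with 100 kb on each side; right, common regions per Mb of span; bars stand for gene lists with their number of genes. The 30 cardiomyocyte genes are at 33.3% and 1.49 per Mb, beside 27.5% and 1.33 for all protein-coding genes and 69.0% and 5.78 for the cytoskeleton list.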

How the data were processed

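JUNB CUT&RUN peak lists of 4 libraries were analysed. Reads were aligned with Bowtie2 to mm10 and peaks called with MACS3, per the submitters' processing notes, and neither settings nor the role of IgG are given in the sources used here. Each library has its own list, tied to its siRNA and replicate number by peak names. Beside position and summit, the deposited lists hold a fold enrichment (a ratio to local background) and −log10 of the p-value and of the q-value for each peak. Each list ends at a −log10 q near 2, so a peak missing from a list can be signal below that threshold. Read depth per library is unknown here beyond the stated 30 M reads.

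The members and lists were chosen with earlier results of these data known. Genes and promoters came from RefSeq tables of GRCm38.p6, the assembly of mm10, and coordinates are 1-based. Exons were not used. Regions were joined by at least 1 bp and counted by summit. All 30 members were described. Coordinates were given for the best-ranked common region of each of the 10 members with one, and for regions in 2 or more lists in or within 5 kb of a body. Further regions, the windows around starts, the 250 kb limit for long genes and the promoters holding TGACTCA were chosen after values were seen. The siRNA groups were compared over libraries with an exact permutation test (two-sided). The procedure was tested on simulated lists with close summits and with regions set well apart. Joins of wide regions with distant summits were not tested in this way. No genome sequence was used here, so region sequences were not searched. Software was Python 3.11.15, NumPy 2.4.6, pandas 2.3.3, SciPy 1.17.1 and Matplotlib 3.10.9.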

Additional observations from a re-analysis of the deposited data

How the results depend on the processing

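Counts followed the width of the span. Members with a common region numbered 2 at a flank of 20 kb (10.8% of protein-coding genes), 0 for the gene body alone (4.99%) and 14 at 200 kb (41.8%), and common regions numbered 2, 0 and 19. At 20 kb, 3 members had a region in both siControl lists and 3 in both siChst7 lists, beside 14.5% of protein-coding genes for each. In the body alone these were 0 and 1, beside 6.74% and 6.9%. Where the member had to be the nearest gene, 2 members had a common region, 3 a region in both siControl lists and 2 in both siChst7 lists, with 2 common regions. With 50% reciprocal overlap, there were 5 common regions and 5 members with one (21.5% of protein-coding genes), since 7 of the 12 regions then had fewer than 4 lists. The regions of Actc1 and Casq2 kept 4 lists both so and with summit windows of 100 bp on each side, and summit windows left Gja1 and the Tnni1 region at 11.8 kb with 3 lists and the Tnni1 region at 27.1 kb with 2.

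The direction of the difference between siRNA groups was not stable. The number of peaks gave a log2 difference of -0.047 at 20 kb and -0.018 where the member was the nearest gene. The share of the list gave -0.0078 and -0.0091 percentage points at these settings, -0.013 at 50 kb and -0.0022 for the body alone. The number of members with a peak gave -1.5 at equal list length. Leaving out 1 library moved the log2 difference between -0.36 and 1.12, the share difference between 0.004 and 0.12 percentage points and the members with a peak between -2.5 and 7.5, with the lowest values without siChst7 replicate 1 and the highest without siChst7 replicate 2. It gave 10 to 11 members with a common region (27.7% to 33.0% of protein-coding genes) and 11 to 15 common regions. Members for both siControl lists numbered 11 to 14, and the share of protein-coding genes ran from 34.5% to 46.0%. The 14 came without siControl replicate 1, beside 43.5%, and 13 came without siControl replicate 2, beside 46.0%. In both cases 1 list alone stands for siControl. Those for both siChst7 lists numbered 10 to 21 (34.9% to 56.1% of protein-coding genes). The 21, beside 56.1%, came without siChst7 replicate 2, where siChst7 replicate 1 alone stands for its group. The cause was not tested. With a replicate block, exact permutation within the pairs gave p = 1 for the log2 difference of 0.38, p = 0.5 for the share difference of 0.06 percentage points and p = 1 for the 2.5 members. The smallest p that permutation within these pairs can give is 0.5, so it cannot pass a threshold of 0.05. The labels tie replicates with the same number by that number alone. Their deviations in log2 fold over 2785 common regions correlated at 0.06. Whether they shared a culture or a batch was not tested. A threshold of fold 3 could not change the counts, since no peak in the spans had a fold under 3. Thresholds of −log10 q 3 and fold 5 left each of these 7 results with its direction or within 1.5 times its count. At fold 5, however, 7 of 30 members had a common region beside 24.3% of protein-coding genes, so the members' share was below that of all genes, as it also was at 20 kb, for the body alone and with 50% reciprocal overlap.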

Other observations

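Some sarcomere and ion handling genes outside the 30 had several JUNB regions in their spans, and these are named after their values were seen. Xirp1, an actin-binding protein of intercalated discs, had 9 regions, 4 of them common. Kcnh2, the rapid delayed rectifier potassium channel gene, had 7 regions with 4 common, and Ank2, which anchors ion transporters, had the same numbers. Myom1, which crosslinks thick filaments at the M-band, had 3 common regions of 4. Camk2d, the cardiac calcium-calmodulin kinase gene, had 11 regions, with 3 in both siControl lists and 6 in both siChst7 lists. Kcnj3, Fabp3, Tnnt1, Mybpc2, Myot and Kcnip2 had none in any list.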
